A study of Mus musculus with 15 samples.

Results

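The 8 genes described here are mouse genes that brain studies commonly list as astrocyte genes: Apoe, Clu, Slc1a2, Slc1a3, Glul, Aldoc, Gfap and S100b. They were mapped by symbol to Ensembl gene identifiers, and all 8 were among the 34259 genes of the count table, where 7 had enough reads to be tested and Slc1a3 did not. The data are RNA-seq read counts from 15 libraries of the mouse glioma line GL261, 3 libraries in each of 5 groups, all labelled wild type and collected on day 6. In 3 hydrogel groups, called D-gel@GSNP, L-gel@GSNP and, with the NP load, D-gel@NP, Hoechst-CD133+ cells were seeded on ice for 20 min into freeze-dried chiral hydrogels, which differ by a D or L prefix and by a GSNP or NP load, and were then cultured with a cytokine cocktail. The PBS group was the same Hoechst-CD133+ fraction given PBS and the cytokine cocktail, with no ice step named, so a comparison of a hydrogel group with PBS also includes the gel and the ice. The non-SP group was GL261 cells that the labels call non-SP and the series design also Luci+, untreated and with no cytokines named. Every group had fresh medium on days 2 and 4. The labels do not spell out GSNP, NP or the cocktail, and they give the same batch for all libraries. They do not say whether replicates came from separate cultures, so the p-values measure the spread between these libraries, which may be technical.

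Astrocytes clear glutamate from the synaptic cleft with the transporters encoded by Slc1a2 (GLT-1) and Slc1a3 (GLAST), and turn it into glutamine with glutamine synthetase, the product of Glul. They also secrete apolipoprotein E (Apoe) and clusterin (Clu), which carry lipids in brain lipoprotein particles. Aldoc encodes the brain form of the glycolytic enzyme aldolase, Gfap the intermediate filament protein that defines reactive astrocytes in histology, and S100b a small calcium-binding protein.

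The libraries held 16626413 to 98102794 counts, with a median of 41576538, so that 3 counts correspond to 0.0306 to 0.18 CPM (the count scaled to the library total). Libraries of D-gel@GSNP were about as far from non-SP libraries as from each other: Euclidean distances over log2 CPM between these groups were 67.6 to 73.93, against 65.06 to 69.03 within D-gel@GSNP and 67.53 to 69.44 within non-SP. D-gel@GSNP lay 113.3 to 123.7 from PBS. Mitochondrially encoded genes took 3 ± 0.316% of counts in D-gel@GSNP libraries, 4.5 ± 0.192% of those in L-gel@GSNP, 4.63 ± 0.191% of those in D-gel@NP, 5.97 ± 0.343% in PBS and 2.86 ± 0.0552% in non-SP (SD, n = 3 each). The part of this difference in the results below was not tested.

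The members differed widely in level. Per length, Glul averaged 107 FPKM (the authors' counts scaled to gene length and library total) over the 15 libraries, Clu 58.5 FPKM and Apoe 40.2 FPKM, which placed them 410th, 854th and 1334th of 34259 genes. Aldoc averaged 1.23 FPKM, Slc1a2 0.894 FPKM and S100b 0.252 FPKM. Gfap averaged 0.0434 FPKM and Slc1a3 0.00214 FPKM, at ranks 20583 and 31529. Of the other astrocyte genes, Gjb6 (connexin 30) and Mlc1, both defining astrocyte membrane proteins, had at most 2 counts in any group. The symbol of the water channel gene Aqp4 matched no gene of the count table. The labelled identity is a glioma cell line, and its astrocyte genes were of mixed level: Gfap, Slc1a3, Gjb6 and Mlc1 were at or near 0 in all 5 groups, while others were well detected in all of them. Group means were 93.7 to 112 CPM for Gja1 (connexin 43), 70.2 to 91.9 CPM for Slc4a4, a bicarbonate transporter gene, 54.4 to 76.6 CPM for Sox9, a glial transcription factor, and 22.8 to 30.5 CPM for Acsbg1, an acyl-CoA synthetase. Of the 22 further astrocyte genes in the table, 9 or 10 had a mean under 1 CPM in each group.

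Promoter windows of 4 members are shown because Apoe and Slc1a2 shared one order of levels over the groups and Glul and Aldoc another. Each runs from 250 bases before to 50 bases after a RefSeq transcription start on GRCm38.p6, in the gene's own direction. The windows are chr7:19699139-19699438 on the minus strand for Apoe, chr2:102706188-102706487 on the plus strand for Slc1a2, chr1:153899679-153899978 on the plus strand for Glul, and chr11:78322823-78323122 on the plus strand for Aldoc. Capitals mark matches, on either strand, to the motifs named after the sequences.
Apoe: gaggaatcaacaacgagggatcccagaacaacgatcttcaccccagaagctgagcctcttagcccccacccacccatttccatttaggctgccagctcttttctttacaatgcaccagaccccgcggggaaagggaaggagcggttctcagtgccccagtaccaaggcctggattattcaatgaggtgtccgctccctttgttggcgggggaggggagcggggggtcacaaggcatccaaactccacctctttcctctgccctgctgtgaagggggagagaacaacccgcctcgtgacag
Slc1a2: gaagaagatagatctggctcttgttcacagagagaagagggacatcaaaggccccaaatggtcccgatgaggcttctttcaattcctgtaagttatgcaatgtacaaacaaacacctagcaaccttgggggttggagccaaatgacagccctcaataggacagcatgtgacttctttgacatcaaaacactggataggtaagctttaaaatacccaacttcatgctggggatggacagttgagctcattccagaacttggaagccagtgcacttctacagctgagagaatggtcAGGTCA
Glul: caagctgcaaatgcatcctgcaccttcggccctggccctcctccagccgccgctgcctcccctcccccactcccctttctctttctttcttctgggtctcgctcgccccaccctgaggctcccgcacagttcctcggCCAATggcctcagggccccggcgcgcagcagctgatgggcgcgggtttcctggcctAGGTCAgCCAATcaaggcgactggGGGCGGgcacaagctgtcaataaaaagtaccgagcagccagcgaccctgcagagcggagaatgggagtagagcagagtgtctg
Aldoc: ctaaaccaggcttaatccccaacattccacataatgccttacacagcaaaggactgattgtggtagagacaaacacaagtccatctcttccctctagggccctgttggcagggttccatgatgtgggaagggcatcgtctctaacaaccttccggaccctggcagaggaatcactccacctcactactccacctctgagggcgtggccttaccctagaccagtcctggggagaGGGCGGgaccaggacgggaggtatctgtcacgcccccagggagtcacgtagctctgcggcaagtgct
The letters searched were CACGTG (E-box), GGGCGG (the GC-rich site of Sp1), TATAAA (as in many core promoters), CCAAT (as bound by NF-Y), AGGTCA (nuclear receptor half-site), TGANTCA (AP-1) and TTCNNNGAA (STAT). The Slc1a2 window lies inside the gene as GENCODE draws it, at chr2:102658659-102790784, and not at that annotation's 5′ end. AGGTCA occurred in windows of Slc1a2, Glul and Gfap, and in 16.3% of all 32851 RefSeq windows of this length. In the Glul window AGGTCA began at -57 and CCAAT at -50 and -113 relative to the start, beside a GGGCGG at -33. Aldoc carried GGGCGG at -17, a motif present in 35.7% of all windows. The Apoe window printed here held none of the 7 motifs, while another annotated Apoe start had TATAAA (13.6% of windows) at -100 and -96. CCAAT was in windows of Glul, S100b and Slc1a3 (37.4% of all windows), and TTCNNNGAA in windows of Aldoc, Gfap and Slc1a3 (8.3%). CACGTG and TGANTCA, held by 7.15% and 7.81% of all windows, were in none of the 10 windows of the 7 members found in the RefSeq table. Clu was not in that table. A match is a stretch of letters and no measure of binding.

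Apoe and Clu, the lipid carriers, were both highest in the PBS cells. Apoe (ENSMUSG00000002985; chr7:19696109-19699188, minus strand, GRCm38) had 29.2, 26.5 and 25.7 CPM in D-gel@GSNP, 92.2, 102 and 90.3 CPM in L-gel@GSNP, 135, 143 and 136 CPM in D-gel@NP, 151, 140 and 127 CPM in PBS, and 26.9, 25.8 and 28.7 CPM in non-SP. The D-gel@GSNP and non-SP libraries overlapped at the low end, the D-gel@NP and PBS libraries overlapped at the high end, and the L-gel@GSNP libraries lay between, clear of both. Neither overlapping pair differed by edgeR's quasi-likelihood test with Benjamini-Hochberg adjustment: the D-gel@NP minus PBS difference was -0.01 on the log2 scale (95% interval -0.15 to 0.12), and the D-gel@GSNP minus non-SP difference was 0.00 (-0.15 to 0.15).

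Clu (ENSMUSG00000022037; chr14:65968483-65981547, plus strand) had 146, 149 and 137 CPM in D-gel@GSNP, 199, 185 and 163 CPM in L-gel@GSNP, 264, 252 and 231 CPM in D-gel@NP, 300.3, 281 and 292 CPM in PBS, and 133, 138 and 139 CPM in non-SP. Its order was the same as that of Apoe over a narrower range: all neighbours in the order PBS, D-gel@NP, L-gel@GSNP and D-gel@GSNP were separated without overlap and called, and D-gel@GSNP overlapped with non-SP (log2 difference 0.08, 95% interval -0.05 to 0.21). The step between D-gel@NP and PBS was the smallest of these, at -0.23 on the log2 scale (adjusted p = 0.0086), and it lost its call when D-gel@NP replicate 3 was left out (adjusted p = 0.0807).

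Among the glutamate genes, group means of Slc1a2 spanned a wider fold range than those of Glul, and Slc1a3 was too low to test. Slc1a2 (ENSMUSG00000005089) had 1.44, 1.91 and 1.22 CPM in D-gel@GSNP, 8.92, 11 and 8.69 CPM in L-gel@GSNP, 19.1, 22.5 and 21.4 CPM in D-gel@NP, 22.5, 22 and 29 CPM in PBS, and 1.46, 1.59 and 2.01 CPM in non-SP. As for Apoe, the groups fell into 3 levels that did not overlap, with PBS and D-gel@NP together at the top (D-gel@NP minus PBS -0.21, 95% interval -0.48 to 0.05) and D-gel@GSNP and non-SP together at the bottom (-0.13, 95% interval -0.53 to 0.27). An antisense gene inside Slc1a2, Gm13872, had 4 counts assigned to it in all libraries together. The strand setting is not given, so reads where both genes overlap cannot be told apart.

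Slc1a3, the other main astrocyte glutamate transporter, had 16 counts in the 15 libraries together. These were 0, 0 and 0 in D-gel@GSNP, 2, 0 and 9 in L-gel@GSNP, 0, 2 and 2 in D-gel@NP, 0, 1 and 0 in PBS, and 0, 0 and 0 in non-SP. L-gel@GSNP replicate 3 was the 1 library above 3 counts, so no difference was detectable at this depth and none was tested.

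Glul, the most abundant member, followed another order. It (ENSMUSG00000026473; chr1:153899944-153909723, plus strand) had 303, 316 and 301 CPM in D-gel@GSNP, 549, 563 and 493 CPM in L-gel@GSNP, 465, 491 and 475 CPM in D-gel@NP, 416, 414 and 403 CPM in PBS, and 283, 283 and 281 CPM in non-SP. No 2 groups overlapped, with L-gel@GSNP highest and non-SP lowest. Replicates of Glul were so close that small differences were called: D-gel@NP exceeded PBS by 0.21 on the log2 scale (adjusted p = 0.00148). L-gel@GSNP exceeded D-gel@NP by 0.16 (adjusted p = 0.0167), a call that was lost without L-gel@GSNP replicate 1 (adjusted p = 0.0644), L-gel@GSNP replicate 2 (0.108) or D-gel@NP replicate 1 (0.0725), and when the 6 libraries compared were fitted alone (0.0635). The D-gel@GSNP minus non-SP difference of 0.12 (95% interval 0.02 to 0.22) was not called (adjusted p = 0.439).

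Aldoc (ENSMUSG00000017390; chr11:78322968-78327781, plus strand) was highest in L-gel@GSNP by a wide margin. It had 0.675, 1.54 and 0.965 CPM in D-gel@GSNP, 11.1, 8.04 and 12.9 CPM in L-gel@GSNP, 3.34, 3.29 and 3.97 CPM in D-gel@NP, 4.05, 3.28 and 3.29 CPM in PBS, and 0.767, 1.15 and 1.21 CPM in non-SP. The lowest L-gel@GSNP library was above every library of the other groups. D-gel@NP and PBS overlapped, with a log2 difference of 0.01 (95% interval -0.45 to 0.47), and so did D-gel@GSNP and non-SP, with 0.05 (-0.51 to 0.60).

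Gfap was near the limit of detection throughout. The counts behind it were 13, 3 and 8 in D-gel@GSNP, 4, 8 and 12 in L-gel@GSNP, 1, 12 and 11 in D-gel@NP, 10, 13 and 11 in PBS, and 6, 1 and 6 in non-SP. Group means ran between 0.105 and 0.28 CPM, most groups overlapped, and Gfap was called in none of the 10 comparisons between groups. The interval of its PBS minus non-SP difference, 1.38 on the log2 scale, ran from -0.07 to 2.83, so a change of several-fold was not detectable at this depth.

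S100b (ENSMUSG00000033208; chr10:76253853-76261159, plus strand) was low as well, with its highest values in L-gel@GSNP. Its counts were 0, 3 and 4 in D-gel@GSNP, 42, 47 and 100 in L-gel@GSNP, 8, 15 and 25 in D-gel@NP, 5, 5 and 11 in PBS, and 4, 0 and 2 in non-SP. In CPM the 3 L-gel@GSNP libraries, at 1.19, 1.06 and 0.991, lay above all others, D-gel@NP followed at 0.477, 0.38 and 0.625, and PBS was lower at 0.13, 0.116 and 0.278. The step from D-gel@NP up to L-gel@GSNP was not called (log2 1.11, 95% interval 0.09 to 2.13, adjusted p = 0.124). The D-gel@GSNP mean of 0.0494 ± 0.0463 CPM and the non-SP mean of 0.0481 ± 0.0479 CPM (SD, n = 3 each) were at the level of a few counts. The end of S100b overlaps Dip2a on the opposite strand, and the strand setting of the counting is not given in the sources used here, so reads of the pair cannot be told apart where they overlap and the S100b values are uncertain. Dip2a had another order, at 67.2 ± 2.85 CPM in D-gel@GSNP, 32.9 ± 3.38 CPM in L-gel@GSNP, 30.9 ± 1.05 CPM in D-gel@NP, 36.4 ± 6.42 CPM in PBS and 67.6 ± 2.84 CPM in non-SP.

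The plot of the members by library shows these orders side by side.

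**Figure D1:**
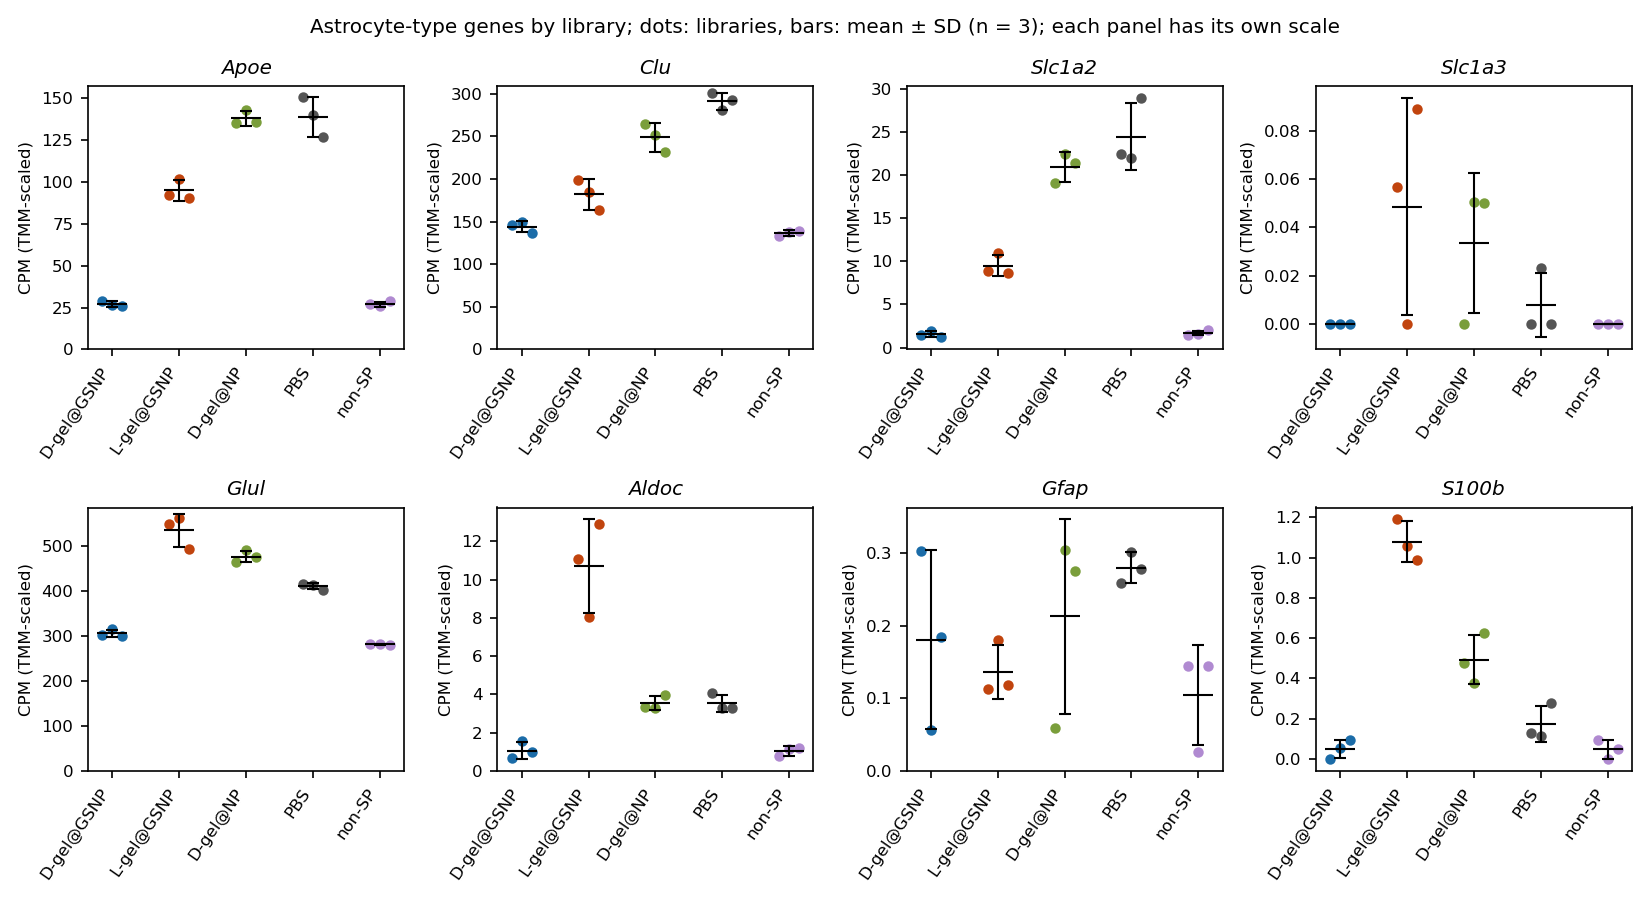
Level of each of the 8 genes (vertical axis, TMM-scaled CPM) in the 15 libraries, 1 panel per gene with its own vertical scale; dots are libraries, and bars the mean and SD of 3. Apoe, Clu and Slc1a2 are highest in PBS and D-gel@NP, Glul, Aldoc and S100b in L-gel@GSNP, and in D-gel@GSNP these 6 lie at or near their non-SP level.

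The first comparison set PBS-treated Hoechst-CD133+ cells against the untreated non-SP fraction, so cell fraction and cytokine treatment cannot be told apart in it. Apoe, Slc1a2, Clu, Glul and Aldoc were higher in PBS cells, and no tested member was lower. Slc1a2 averaged 24.5 ± 3.92 CPM in PBS and 1.69 ± 0.287 CPM in non-SP (SD, n = 3 each), a 14.5-fold difference (log2 3.86, 95% interval 3.52 to 4.19, adjusted p = 1.47e-14). Aldoc averaged 3.54 ± 0.44 CPM in PBS and 1.04 ± 0.241 CPM in non-SP, or 3.39-fold more (adjusted p = 2.36e-06). The differences of Apoe, Clu and Glul were 5.13-fold, 2.13-fold and 1.46-fold. The 5 calls among 7 tested members stand beside 27.6% of all 17497 tested genes called higher and 26.1% called lower. The members' median log2 difference was 1.76, against 0.02 over all genes. On the log2(FPKM + 1) scale, which understates changes of low genes, limma gave 1.35 for Slc1a2 and 0.67 for Aldoc. S100b was at 0.175 ± 0.09 CPM in PBS and 0.0481 ± 0.0479 CPM in non-SP (adjusted p = 0.056), just short of the threshold, and passed it under 4 other settings and without PBS replicate 2 or non-SP replicate 1. In bulk RNA, fewer cells of a kind and less RNA per cell cannot be told apart.

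Set against PBS, D-gel@GSNP cells had less of the same 5 members and more of none. Slc1a2 averaged 1.52 ± 0.353 CPM in D-gel@GSNP and 24.5 ± 3.92 CPM in PBS (log2 difference -3.99, 95% interval -4.32 to -3.65). Apoe averaged 27.1 ± 1.81 CPM in D-gel@GSNP and 139 ± 11.9 CPM in PBS (log2 -2.36, adjusted p = 5.09e-17). Clu fell by 1.01, Glul by 0.42 and Aldoc by 1.71 on the log2 scale. The shares of all tested genes were 27.4% called higher and 27.5% called lower. The members' median was -1.71 and that of all genes -0.02. S100b, at -1.75, missed the threshold (adjusted p = 0.0509) and passed it under 5 other settings and without D-gel@GSNP replicate 3 or PBS replicate 2.

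L-gel@GSNP cells split the list. Apoe, Clu and Slc1a2 were lower than in PBS, while Glul, Aldoc and S100b were higher. Aldoc averaged 10.7 ± 2.44 CPM in L-gel@GSNP and 3.54 ± 0.44 CPM in PBS, a 3.03-fold difference (adjusted p = 1.58e-06). S100b averaged 1.08 ± 0.1 CPM in L-gel@GSNP and 0.175 ± 0.09 CPM in PBS, 6.1-fold on few counts (log2 2.61, 95% interval 1.49 to 3.72, adjusted p = 0.000376). Glul was 1.3-fold higher. Slc1a2 fell by 1.36 on the log2 scale, Clu by 0.68 and Apoe by 0.55. Gfap, at -1.03, was not called (adjusted p = 0.212). Of all tested genes 21.5% were called higher and 24.1% lower, beside 3 and 3 of the 7 members; these were 3761 and 4218 genes, or 4560 and 3421 with upper-quartile factors.

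D-gel@NP cells had the fewest members called against PBS of the 3 hydrogel groups. Glul was higher by 0.21 and Clu lower by 0.23 on the log2 scale, and Apoe, Slc1a2, Aldoc, Gfap and S100b were not called. The background was 14.2% of genes higher and 16.3% lower, with 2479 and 2848 genes, a split that turned to 2974 and 2221 with upper-quartile factors. S100b averaged 0.494 ± 0.123 CPM in D-gel@NP and 0.175 ± 0.09 CPM in PBS without overlap (log2 1.5, 95% interval 0.30 to 2.69, adjusted p = 0.0529), and was called under 7 other settings and without PBS replicate 3. These 3 hydrogel comparisons and the first one share the same PBS libraries.

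**Figure D2:**
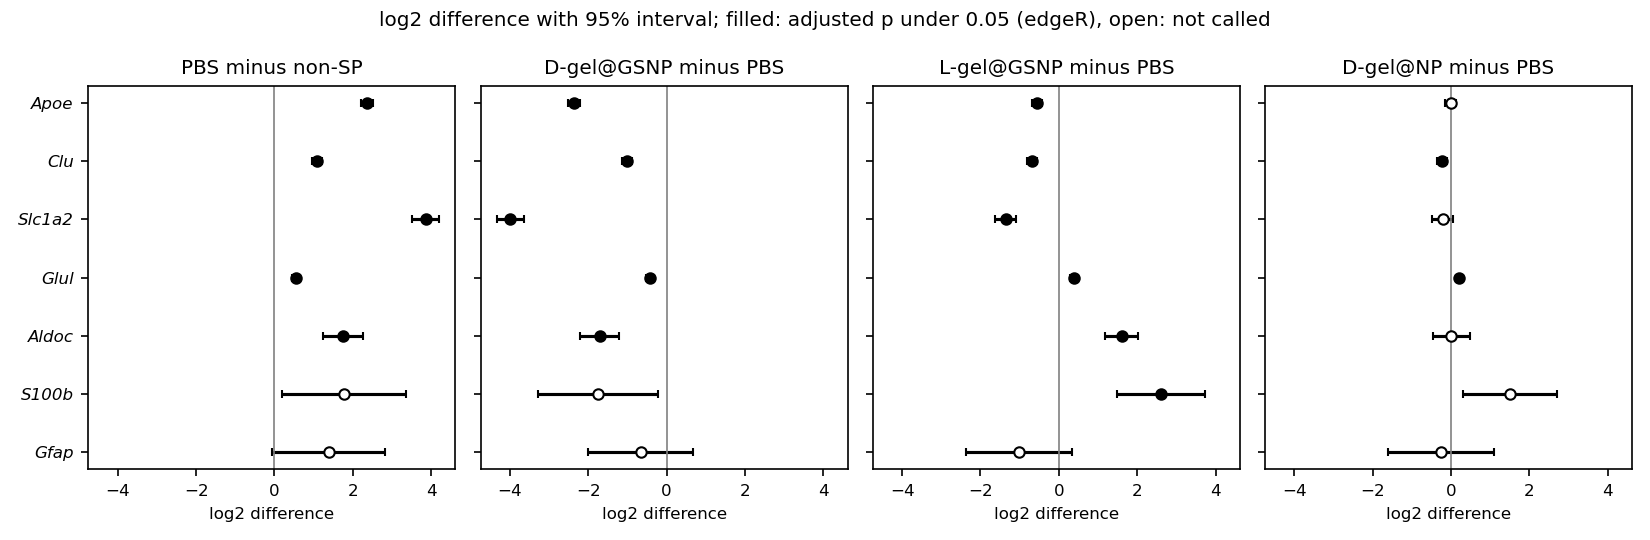
log2 difference (horizontal axis, first-named group minus the second) of the 7 tested genes in 4 comparisons that share the PBS libraries, with 95% intervals; filled points have an edgeR adjusted p under 0.05. In the L-gel@GSNP panel Slc1a2 lies at -1.36 and Aldoc at 1.60, on either side of 0.

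The D and L gels with the same GSNP load, compared at the same day and with the same ice step, differed at 6 of the 7 tested members, all lower in D-gel@GSNP. Slc1a2 averaged 1.52 ± 0.353 CPM in D-gel@GSNP and 9.53 ± 1.27 CPM in L-gel@GSNP (log2 -2.62, adjusted p = 3.7e-12). Aldoc averaged 1.06 ± 0.438 CPM in D-gel@GSNP and 10.7 ± 2.44 CPM in L-gel@GSNP, 9.93-fold less. Apoe fell by 1.81, Glul by 0.80, Clu by 0.34 and S100b by 4.35 on the log2 scale, the last with 7 counts in all in D-gel@GSNP and 189 in L-gel@GSNP. Gfap did not pass (log2 0.37, 95% interval -1.03 to 1.77). Over all tested genes 30.5% were called higher and 31.3% lower, 5339 and 5475 genes, or 4180 and 6778 with upper-quartile factors.

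The same D gel with the GSNP or the NP load also differed at 6 of 7 members, all lower with GSNP. Apoe averaged 27.1 ± 1.81 CPM in D-gel@GSNP and 138 ± 4.49 CPM in D-gel@NP, 5.09-fold less, and Slc1a2 was 13.7-fold lower. Clu was lower by 1.72-fold, Glul by 1.56-fold and Aldoc by 3.3-fold, and S100b fell by 3.24 on the log2 scale with 7 against 48 counts. The background was 28.8% higher and 29.6% lower, 5031 and 5183 genes, which became 3961 and 6303 with upper-quartile factors. Upper-quartile factors shifted the median log2 difference of all genes to -0.18 in the comparison of D-gel@GSNP with L-gel@GSNP, to -0.141 in that with D-gel@NP, and to 0.157 and 0.118 for L-gel@GSNP and D-gel@NP minus non-SP, and no called member changed direction under them.

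Between L-gel@GSNP and D-gel@NP, which differ in both gel and load, Apoe fell by 0.54, Slc1a2 by 1.15 and Clu by 0.45 on the log2 scale, while Aldoc was 3.01-fold higher (adjusted p = 1.45e-05) and Glul 1.12-fold higher. Fewer genes were called here than in the previous comparisons, 8.33% higher and 11.1% lower, or 1457 and 1948 genes, a split that turned to 1720 and 1645 with upper-quartile factors. S100b averaged 1.08 ± 0.1 CPM in L-gel@GSNP and 0.494 ± 0.123 CPM in D-gel@NP (adjusted p = 0.124) and was called under 5 other settings.

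Set against non-SP, D-gel@GSNP cells had no member called, with a median log2 difference of 0.05. The hydrogel groups differ from non-SP in cell fraction, cytokines, gel, load and ice step, which cannot be told apart here. Of the 7 tested, 1 member, Glul, had an unadjusted p under 0.05 (0.0215) in edgeR, and DESeq2 and limma on log2(FPKM + 1) called 0. Over all genes 0.103% were called higher and 0.314% lower, 18 and 55 genes, while 9.04% had an unadjusted p under 0.05. A p that misses the threshold does not show equality. The 95% intervals reached 0.53 below non-SP for Slc1a2 and 0.60 above it for Aldoc on the log2 scale. For the members with few counts they were wider, from -0.77 to 2.22 for Gfap and from -1.87 to 1.92 for S100b. L-gel@GSNP and D-gel@NP each had 6 members higher than non-SP and 0 lower. The corresponding backgrounds were 30.6% higher and 29.2% lower for L-gel@GSNP, and 29.1% higher and 27% lower for D-gel@NP. With upper-quartile factors 6472 genes were higher and 4106 lower for L-gel@GSNP, in place of 5361 and 5107, and 6016 and 3859 for D-gel@NP, in place of 5098 and 4725. Aldoc was 10.3-fold higher in L-gel@GSNP than in non-SP and 3.41-fold higher in D-gel@NP than in non-SP. Slc1a2 went the other way between these gels, 5.63-fold higher in L-gel@GSNP than in non-SP and 12.5-fold higher in D-gel@NP than in non-SP.

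Genes that act with Apoe in lipid transport moved in part. Of 26 listed, 25 were in the table and 22 were tested. In PBS against non-SP 10 were higher and 2 lower, beside 27.6% and 26.1% of all tested genes, and the median log2 difference was 0.10, against 0.02 over all genes. Abcg1, which exports cholesterol to lipoproteins, averaged 20.5 ± 1.33 CPM in PBS and 3.6 ± 0.529 CPM in non-SP, a 5.7-fold difference near that of Apoe. Npc2, a lysosomal cholesterol carrier, averaged 302 ± 23.8 CPM in PBS and 128 ± 2.9 CPM in non-SP. Vldlr, a receptor for apolipoprotein E particles, averaged 71.4 ± 1.67 CPM in PBS and 35.5 ± 1.26 CPM in non-SP, and Scarb1, the high-density lipoprotein receptor, was lower, at 30.3 ± 3.02 CPM in PBS and 67.2 ± 1.57 CPM in non-SP. Against PBS, 5 rose and 10 fell in D-gel@GSNP (all genes 27.4% and 27.5%) and 3 rose and 7 fell in L-gel@GSNP (all genes 21.5% and 24.1%). In L-gel@GSNP Npc2 fell with Apoe and Clu, to 195 ± 3.04 CPM against 302 ± 23.8 CPM in PBS. The receptors parted: Vldlr rose to 139 ± 15.1 CPM in L-gel@GSNP against 71.4 ± 1.67 CPM in PBS, and Lrp8, another apolipoprotein E receptor, fell to 15.2 ± 1.61 CPM in L-gel@GSNP against 37.7 ± 3.97 CPM in PBS. Lpl, lipoprotein lipase, averaged 362 ± 11.1 CPM in L-gel@GSNP and 249.8 ± 3.54 CPM in PBS.

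**Figure D3:**
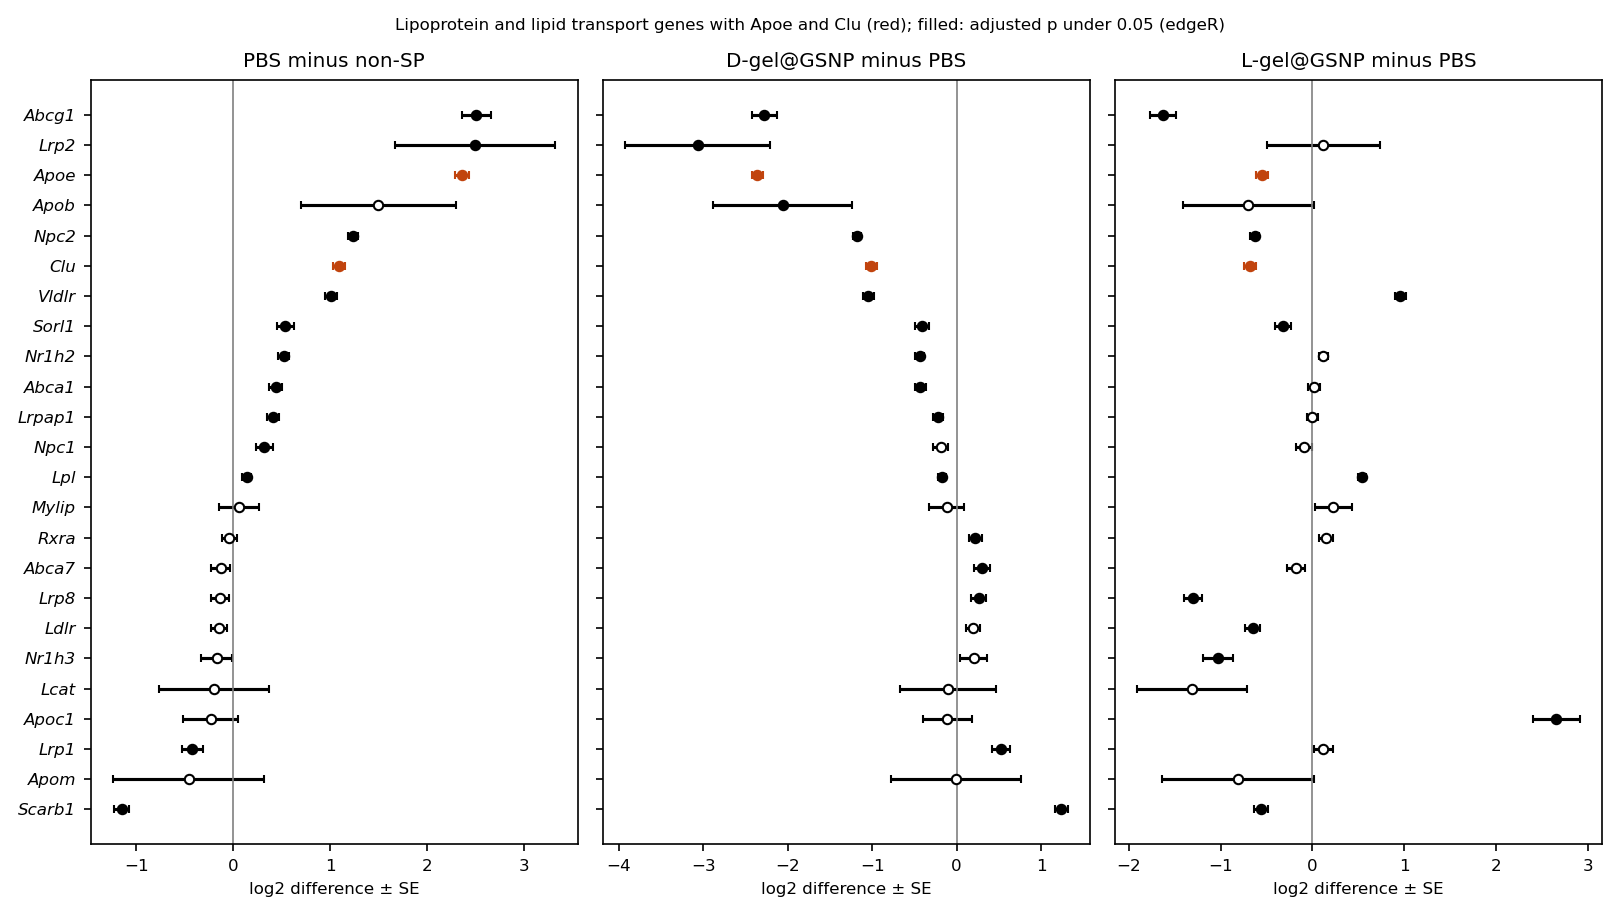
log2 difference with SE (horizontal axis) of the 22 tested lipid transport genes and, in red, Apoe and Clu, in 3 comparisons that share the PBS libraries; filled points have an edgeR adjusted p under 0.05. Abcg1, Npc2, Apoe and Clu lie right of 0 in PBS minus non-SP and left of 0 in both gel comparisons, while Vldlr lies right of 0 in L-gel@GSNP minus PBS, at 0.96.

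Apoc1 and Tomm40, neighbours of Apoe on chromosome 7, had orders of their own. Apoc1, a small apolipoprotein gene, averaged 0.568 ± 0.0384 CPM in D-gel@GSNP, 3.89 ± 0.675 CPM in L-gel@GSNP, 1.73 ± 0.275 CPM in D-gel@NP, 0.615 ± 0.108 CPM in PBS and 0.717 ± 0.265 CPM in non-SP. Its mean was highest in L-gel@GSNP, as were those of Aldoc and S100b, and not in PBS. Tomm40, a mitochondrial import gene, was highest where Apoe was lowest, at 106 ± 0.756 CPM in D-gel@GSNP, 28.6 ± 1.98 CPM in L-gel@GSNP, 36.2 ± 4.79 CPM in D-gel@NP, 48.7 ± 3.42 CPM in PBS and 103 ± 0.875 CPM in non-SP. Among further neighbours, group means of Apoc4 ran only from 5.25 CPM in PBS to 7.25 CPM in D-gel@NP. Those of Apoc2, on few counts, ran from 0.0324 CPM in PBS to 0.131 CPM in non-SP. Tomm40, Apoc4 and Apoc2 are outside the lists and were looked at for their position after earlier results were known.

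The other genes of glutamate and glutamine handling did not follow Slc1a2 as a group. Of 20 listed, 19 were in the table and 15 were tested. In PBS against non-SP 5 of the 15 were higher and 6 lower, beside 27.6% and 26.1% of all genes (median log2 difference -0.05). The neutral amino acid transporters Slc38a2 and Slc38a1, which carry glutamine, were higher: Slc38a2 averaged 1936 ± 79.1 CPM in PBS and 1055 ± 25 CPM in non-SP, and Slc38a1 46.9 ± 1.51 CPM in PBS and 25.2 ± 0.562 CPM in non-SP. Gpt2, a mitochondrial alanine transaminase, was 2.79-fold higher in PBS, and Glud1, glutamate dehydrogenase, was 1.4-fold lower. In L-gel@GSNP against PBS 2 rose and 8 fell, beside 21.5% and 24.1% of all genes. Gpt2 rose to 42.6 ± 3.42 CPM in L-gel@GSNP against 19.2 ± 1.58 CPM in PBS, in the direction of Glul, and Glud1 fell to 209 ± 13 CPM in L-gel@GSNP against 303 ± 13.6 CPM in PBS. Against PBS, D-gel@GSNP had 6 higher and 5 lower (all genes 27.4% and 27.5%), and D-gel@NP 6 and 6 (14.2% and 16.3%).

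Glycolytic genes were higher beside Aldoc in L-gel@GSNP, against PBS and against D-gel@NP, while in D-gel@GSNP they were higher than in PBS and Aldoc was lower. All 16 listed genes were tested. In L-gel@GSNP against PBS 9 were higher and 0 lower, beside 21.5% and 24.1% of all genes, with a median log2 difference of 0.25 where all genes had 0.00. Pgk1, phosphoglycerate kinase, averaged 1195 ± 193 CPM in L-gel@GSNP and 611 ± 25.7 CPM in PBS. The phosphofructokinase genes Pfkp and Pfkl were 1.98-fold and 1.58-fold higher, and Tpi1, triosephosphate isomerase, was 1.62-fold higher. Aldoc, at 3.03-fold, had the largest rise. In D-gel@GSNP against PBS, where Aldoc was 3.28-fold lower, 8 of the 16 were higher and 2 lower (all genes 27.4% and 27.5%). Eno1, the main enolase, averaged 1450.5 ± 47.9 CPM in D-gel@GSNP and 1035 ± 16.8 CPM in PBS. In PBS against non-SP 4 were higher and 8 lower (27.6% and 26.1%) while Aldoc was higher. In D-gel@NP against PBS 1 was higher and 6 lower (14.2% and 16.3%). In L-gel@GSNP against D-gel@NP 12 were higher and 0 lower (8.33% and 11.1%), with Aldoc 3.01-fold higher.

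**Figure D4:**
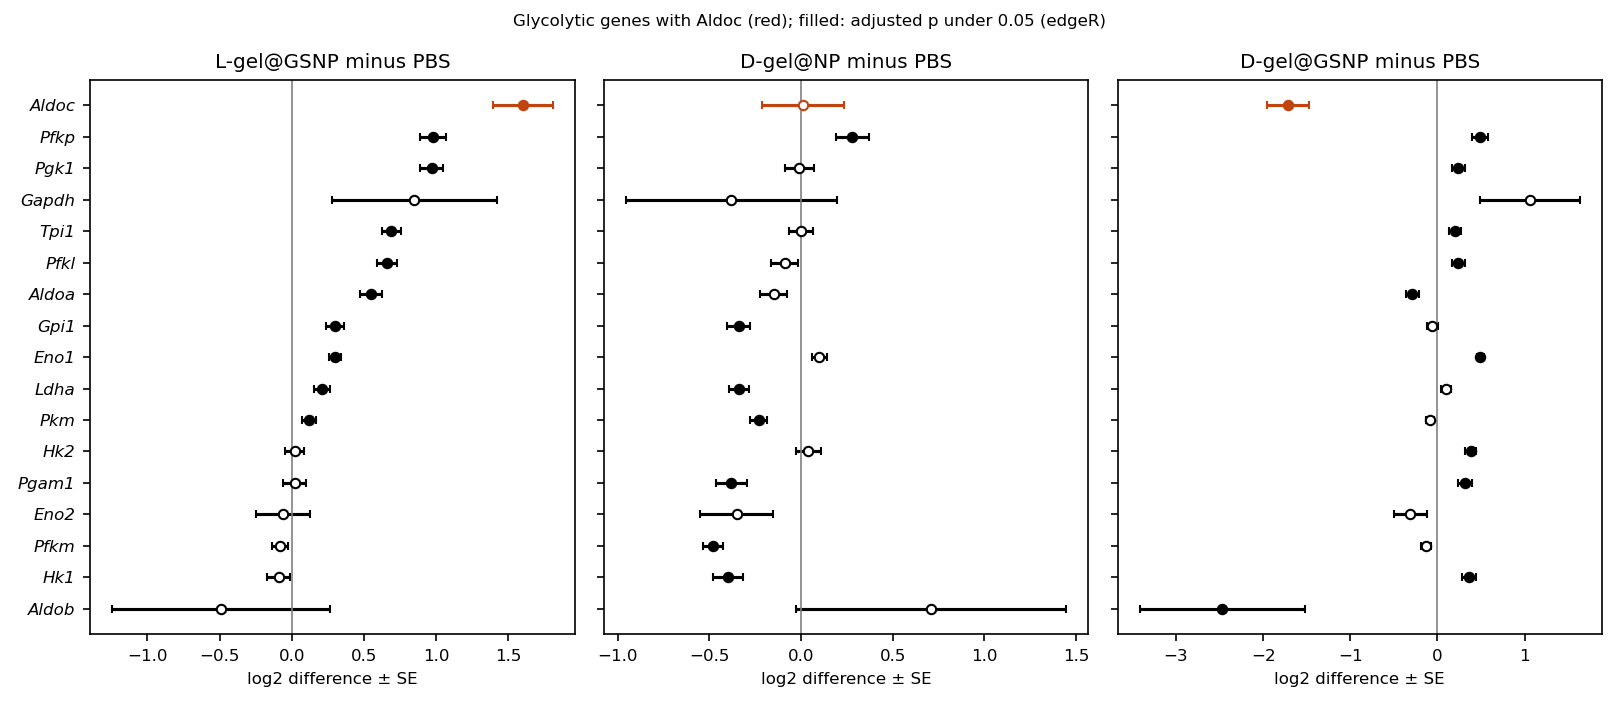
log2 difference with SE (horizontal axis) of 16 glycolytic genes and, in red, Aldoc, in the 3 hydrogel groups minus the same PBS libraries; filled points have an edgeR adjusted p under 0.05. Aldoc is at 1.60, 0.01 and -1.71 in the 3 panels, and 9, 1 and 8 of the 16 others are called higher.

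In L-gel@GSNP, where S100b was highest, most other tested S100 genes were lower than in PBS. Of 15 listed S100 genes other than S100b, 14 were in the table and 10 were tested; S100pbp, listed with them, encodes a binding partner and is left out of these counts. In PBS against non-SP 8 were higher and 0 lower, beside 27.6% and 26.1% of all genes, among them S100a1 at 115 ± 17.6 CPM in PBS and 42.1 ± 2.13 CPM in non-SP, and S100a13 at 45 ± 7.65 CPM in PBS and 14.6 ± 0.935 CPM in non-SP. In L-gel@GSNP against PBS, where S100b was 6.1-fold higher, 0 were higher and 7 lower, beside 21.5% and 24.1% of all genes. S100a6 averaged 505 ± 63.5 CPM in L-gel@GSNP and 1117 ± 146 CPM in PBS, and S100a1 47.5 ± 3.26 CPM in L-gel@GSNP and 115 ± 17.6 CPM in PBS. Against PBS, 0 rose and 8 fell in D-gel@GSNP (all genes 27.4% and 27.5%), and 1 rose and 8 fell in D-gel@NP (14.2% and 16.3%). S100pbp itself was called higher than in PBS in both L-gel@GSNP (log2 0.48) and D-gel@NP (0.25).

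The intermediate filament list, which also holds Plec, the gene of the filament linker plectin, ranged from abundant genes to undetected ones: of 14 genes, 6 had a mean under 1 CPM in each group and 9 were tested. In PBS against non-SP 2 were higher and 6 lower, beside 27.6% and 26.1% of all genes. Vim, vimentin, averaged 1118 ± 42.9 CPM in PBS and 896 ± 5.86 CPM in non-SP, while Nes, nestin, averaged 1.24 ± 0.53 CPM in PBS and 3.7 ± 0.152 CPM in non-SP. Lmnb1, a nuclear lamin, was 2.91-fold lower in PBS. In L-gel@GSNP against PBS 3 rose and 2 fell (all genes 21.5% and 24.1%): Des, desmin, averaged 38 ± 3.63 CPM in L-gel@GSNP and 9.59 ± 1.21 CPM in PBS, and Prph, peripherin, averaged 19.5 ± 1.84 CPM in L-gel@GSNP and 2.2 ± 1.19 CPM in PBS.

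A list of 25 genes known to rise in reactive astrocytes, 20 of them tested, had 13 higher and 4 lower in PBS than in non-SP, beside 27.6% and 26.1% of all genes, and a median log2 difference of 0.76. In D-gel@GSNP against PBS 3 were higher and 12 lower (all genes 27.4% and 27.5%). Cd44, a hyaluronan receptor, averaged 1156 ± 48 CPM in PBS and 523 ± 5.85 CPM in non-SP, and Emp1, an epithelial membrane protein gene, 1252 ± 48 CPM in PBS and 521 ± 1.4 CPM in non-SP. Fkbp5, 1 of the 4 genes lower in PBS than in non-SP, averaged 73.3 ± 6.29 CPM in PBS and 171 ± 3.95 CPM in non-SP. In L-gel@GSNP against PBS 9 rose and 8 fell (all genes 21.5% and 24.1%). Lcn2, the iron-binding secreted protein lipocalin-2, averaged 10.9 ± 1.16 CPM in L-gel@GSNP and 0.572 ± 0.344 CPM in PBS, Steap4, a metalloreductase, 51.9 ± 3.11 CPM in L-gel@GSNP and 6.3 ± 2.77 CPM in PBS, and Osmr, the oncostatin M receptor, 18.6 ± 1.27 CPM in L-gel@GSNP and 6.57 ± 0.479 CPM in PBS. Emp1 and Cd44 were among the 8 that fell against PBS, to 856 ± 31.1 CPM and 891 ± 33.8 CPM in L-gel@GSNP. Many genes of this list respond to cytokines in other cell types too, and the part of the cytokine cocktail was not tested. Gfap was not called, on counts too few to detect a change of several-fold.

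Beyond the 8 members, 24 further astrocyte genes were listed, 22 were in the table and 17 were tested. Their calls went both ways: 6 higher and 7 lower in PBS than in non-SP (all genes 27.6% and 26.1%), 7 higher and 5 lower in D-gel@GSNP than in PBS (27.4% and 27.5%), 7 higher and 4 lower in L-gel@GSNP than in PBS (21.5% and 24.1%), and 3 higher and 2 lower in D-gel@NP than in PBS (14.2% and 16.3%). Aldh1l1, a folate enzyme gene widely used as an astrocyte marker, moved with Apoe and Slc1a2, at 1.25 ± 0.0447 CPM in PBS and 0.131 ± 0.013 CPM in non-SP (adjusted p = 2.83e-06). Cst3, the cystatin C gene, averaged 237 ± 13.5 CPM in PBS and 137 ± 2.59 CPM in non-SP. Id3, a transcriptional inhibitor, and Ntsr2, a neurotensin receptor, went the other way, Ntsr2 at 0.401 ± 0.163 CPM in PBS and 2.06 ± 0.277 CPM in non-SP. Their summed level was 779 to 790.4 CPM per library in D-gel@GSNP, 844 to 897 CPM in L-gel@GSNP, 797 to 859.8 CPM in D-gel@NP, 765 to 794 CPM in PBS and 753 to 766 CPM in non-SP. The 8 members summed to 466 to 495 CPM in D-gel@GSNP, 769 to 871 CPM in L-gel@GSNP, 869 to 913 CPM in D-gel@NP, 855 to 894 CPM in PBS and 445 to 452 CPM in non-SP, most of it from Glul, Clu and Apoe.

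Apoe and Clu are also expressed by macrophages and other cells, so markers of other cell types were read in the same libraries. The 10 microglia or macrophage markers summed to 12 to 13 CPM in D-gel@GSNP, 38.5 to 45.1 CPM in L-gel@GSNP, 32.7 to 40.6 CPM in D-gel@NP, 66.8 to 74.7 CPM in PBS and 11.1 to 11.3 CPM in non-SP. The sums were lowest in D-gel@GSNP and non-SP, and those of D-gel@NP were under PBS and overlapped with L-gel@GSNP. Of the 7 tested, 5 were higher in PBS than in non-SP and 0 lower, beside 27.6% and 26.1% of all genes: Csf1r, a macrophage growth factor receptor, averaged 24.6 ± 1.98 CPM in PBS and 2.46 ± 0.737 CPM in non-SP, and Cd68, a lysosomal protein gene, 42.4 ± 5.79 CPM in PBS and 6.51 ± 0.572 CPM in non-SP. Most of the sum in each group came from Csf1r and Cd68. Of the same 7, 0 were higher in D-gel@NP than in PBS and 3 lower (all genes 14.2% and 16.3%). Cd68 was among the lower, at 16.3 ± 2.25 CPM in D-gel@NP. The defining marker Tyrobp had at most 2 counts in any group. Their part in the Apoe and Clu results was not tested. Endothelial markers summed to 5.1 to 6.47 CPM in D-gel@GSNP, 7.98 to 10.6 CPM in L-gel@GSNP, 11.8 to 15.8 CPM in D-gel@NP, 18.1 to 21.7 CPM in PBS and 6.79 to 7.65 CPM in non-SP. Of the 4 endothelial markers tested, 1 was higher in PBS than in non-SP and 1 lower (all genes 27.6% and 26.1%). Vwf, the higher, made up most of the PBS sum, at 15.7 ± 1.73 CPM in PBS and 1.29 ± 0.231 CPM in non-SP. Flt1 was lower, at 2.57 ± 0.411 CPM in PBS and 4.87 ± 0.466 CPM in non-SP. Neuronal markers summed to 0.652 to 1.42 CPM in D-gel@GSNP, 8.86 to 12.2 CPM in L-gel@GSNP and 4.92 to 5.12 CPM in D-gel@NP. Their sums were 1.49 to 2.48 CPM in PBS and 1.6 to 2.1 CPM in non-SP. Map2 made up most of the L-gel@GSNP sum, at 9.72 ± 1.8 CPM. Oligodendrocyte markers summed to 37.6 to 42.1 CPM in D-gel@GSNP, 19.1 to 21.5 CPM in L-gel@GSNP and 18.7 to 34.6 CPM in D-gel@NP. These came to 53.7 to 54.7 CPM in PBS, most of it Pdgfra, and 37.7 to 41.2 CPM in non-SP. Fibroblast or pericyte markers, most of them counts of Dcn, summed to 657 to 677 CPM in D-gel@GSNP, 1303 to 1462 CPM in L-gel@GSNP, 1428 to 1491 CPM in D-gel@NP, 1241 to 1316 CPM in PBS and 661 to 689 CPM in non-SP. Of the 6 tested, 2 were higher in PBS than in non-SP and 3 lower, beside 27.6% and 26.1% of all genes. Dcn was higher, at 1285 ± 40.3 CPM in PBS and 662 ± 14.6 CPM in non-SP. Col1a1 was lower, at 1.58 ± 1.45 CPM in PBS and 13.4 ± 1.31 CPM in non-SP.

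**Figure D5:**
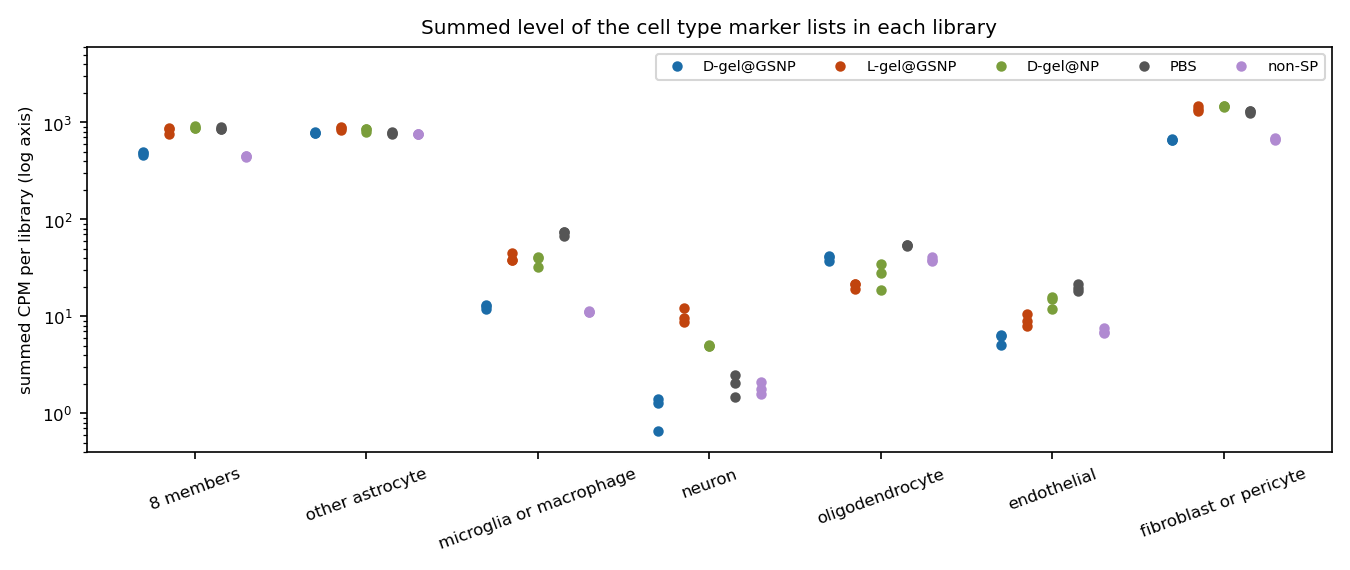
Summed CPM of each marker list per library (log axis), with the 8 members first; each dot is a library, coloured by group. The microglia or macrophage sums are 66.8 to 74.7 CPM in PBS and 11.1 to 11.3 CPM in non-SP, and the sums of the other astrocyte genes lie between 753 and 897 CPM in all libraries.

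The genes most like Apoe were found by the root mean square (RMS) difference of centred log2 CPM over the 15 libraries, among 10086 candidate genes whose median RMS difference from Apoe was 1.12. The 4 nearest were Ddit4l (0.174), whose relative Ddit4 restrains mTOR signalling, Tmem86a (0.184), Bcl6 (0.191), a transcriptional repressor, and Dbp (0.199), a clock-controlled transcription factor. Ddit4l averaged 12 CPM in D-gel@GSNP, 44.3 CPM in L-gel@GSNP, 59.5 CPM in D-gel@NP, 61.5 CPM in PBS and 12.4 CPM in non-SP. All 4 were nearer to Apoe than any other member was, the nearest of these being Slc1a2 at 0.678. They were picked as the nearest of 10086 candidates, so this contrast with a few members carries no weight. For Slc1a2, with a median of 1.76, the nearest were Hist1h2be (0.335), a histone H2B gene, Vwf (0.367), the von Willebrand factor gene, Cd80 (0.383), a T cell costimulatory ligand, and Mx1 (0.421), an interferon-induced GTPase. Cd80 averaged 1.83 CPM in D-gel@GSNP, 13.5 CPM in L-gel@GSNP, 16.7 CPM in D-gel@NP, 22.2 CPM in PBS and 1.91 CPM in non-SP. Among the members themselves, Clu and Glul were the nearest pair (0.343), both with small ranges, and Gfap and S100b the farthest (1.62), both on few counts. These values describe likeness over libraries that share their group structure and carry no test.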

How the data were processed

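Read counts per gene were deposited as 1 table for the 15 libraries. Per the submitters' processing notes, the authors trimmed reads with fastp 0.22.0, aligned them with HISAT2 2.1.0 to GRCm39 and counted them with featureCounts; strand and multi-mapping settings are not given in the sources used here. The authors' deposited FPKM values equal the count over a fixed gene length and the library total for all 34259 genes within a relative tolerance of 0.0001. Between 62.3% and 66.4% of counts from 1 to 20 per gene were even, so counting intervals would be too narrow if mates were counted separately; none are given here. Symbols came from GENCODE for GRCm38 by identifier (32434 of 34259 matched); GRCm38 coordinates and sequences serve as annotation only.

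Genes were kept with filterByExpr (17497 genes). edgeR 4.0.16 in R 4.3.3 fitted a quasi-likelihood model with TMM factors and a mean per group to all 15 libraries, and 10 comparisons were tested; a call is an adjusted p (Benjamini-Hochberg) under 0.05. Levels are TMM-scaled CPM computed from the counts. The pipeline was run on simulated counts in which a small part of the genes changed. Such a run does not check the scaling where many genes differ, as in most comparisons here. Alternatives tried were upper-quartile or RLE factors, no filter, a filter of 1 CPM in 3 libraries, a replicate block, a fit of the 6 libraries compared, leaving out each library, DESeq2 1.42.0, and limma 3.58.1 on log2(FPKM + 0.1) and on log2(FPKM + 1), the last also unfiltered.

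The members, the gene lists and the motifs were chosen with earlier results of these data known. Named genes are the members, the 4 genes most like Apoe and Slc1a2 (at least 5 CPM in the highest group), and up to 4 genes of each list by lowest adjusted p in the comparison described. Aqp4, Gja1, Slc4a4, Sox9, Acsbg1, Gjb6, Mlc1, S100pbp, Plec, Tyrobp, Apoc1, Apoc2, Apoc4, Dip2a, Tomm40, Dcn and Gm13872 are named besides for their level or position.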

Additional observations from a re-analysis of the deposited data

How the results depend on the processing

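The 47 called member differences gave 752 values under the alternatives, of which 747 kept direction and call, 5 lost the call and 0 turned round. Those 5 were Clu in D-gel@NP minus PBS and Glul in L-gel@GSNP minus D-gel@NP, with the values given beside these results. The 23 differences that were not called gave 350 values, of which 26 were called, all of S100b, and 26 changed sign. For Apoe in D-gel@NP minus PBS these were 0.03 with upper-quartile factors and 0.00 with the filter of 1 CPM, and -0.08 to 0.06 leaving out a library. Aldoc in D-gel@NP minus PBS was -0.01 with the replicate block and -0.09 to 0.13 leaving out a library, and in D-gel@GSNP minus non-SP it was -0.01 and -0.04 by limma on log2(FPKM + 1) and log2(FPKM + 0.1), -0.01 without a filter, and -0.34 to 0.28 leaving out a library. Leaving out a library gave -0.06 to 0.04 for Apoe, -0.34 to 0.02 for Slc1a2 and -0.63 to 0.93 for S100b in D-gel@GSNP minus non-SP. For Gfap it gave -0.53 to 0.06 in D-gel@NP minus PBS, -0.21 to 0.83 in D-gel@GSNP minus L-gel@GSNP, -0.98 to 0.06 in D-gel@GSNP minus D-gel@NP and -0.09 to 0.64 in L-gel@GSNP minus non-SP.

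Members called in D-gel@NP minus PBS numbered 1 to 3 leaving out a library, against 2. Genes called in D-gel@GSNP minus non-SP, 73, became 239 without a filter, 34 with the replicate block, 282 with only the 6 libraries compared, 195 by DESeq2, 25, 36 and 11 by limma on log2(FPKM + 1), log2(FPKM + 0.1) and log2(FPKM + 1) with no filter, and 6 to 140 leaving out a library; the cause was not tested. The replicate numbers did not pair the samples: correlations of same-numbered libraries over 10 pairs of groups ran from -0.0362 to 0.0448, and the block changed no call of a member. On log2(FPKM + 1) the differences of low genes shrink by construction: Slc1a2 in PBS minus non-SP was 1.35 and Aldoc 0.67. Depth limits Gfap, S100b and Slc1a3.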
